A study of Mus musculus with 8 samples.

Results

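The genes described are 10 direct or widely used target genes of canonical Wnt signalling that are known from hair follicles, namely Nkd1, Nkd2, Sp5, Sp8, Apcdd1, Tnfrsf19, Edar, Bambi, Myc and Cd44. They were chosen by name, and a probe was assigned to a gene where its RefSeq accession belongs to that gene. All 10 have a probe among the 37018 genes of the array, with 17 probes in all. The detection filter passed 8 of the 10, against 25353 genes in the whole series. Edar and Bambi did not pass it. Of the 25353 genes, 16133 have a gene symbol. The rest are array identifiers without a symbol, and they count as genes in every share of all genes given below.

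The tissue was the whisker follicle, taken from female ApcMin/+ mice and profiled by microarray. Mice of both groups are heterozygous for this truncating allele of Apc in all cells, so neither group is wild type for Apc. The E7386 group (n = 4) received E7386 by mouth at 30 mg/kg, 2 times a day, from 8 weeks of age. A cycle had 5 days of dosing followed by 2 days of rest, 4 cycles were given, and the follicles were collected 6 h after the last dose. The vehicle group (n = 4) received vehicle. E7386 is a small molecule described as blocking the interaction of beta-catenin with its coactivator CBP, and the comparison asks what a course of it did to gene expression in a Wnt-dependent tissue. Each sample was hybridised to its own 1-colour Agilent array, and all 8 arrays share a slide. The groups lie in separate rows of it, so row and treatment cannot be told apart. Whether each sample is from its own mouse is not stated in the labels, so the p-values rest on the spread between samples, which may be technical. The number of arrays limits the precision.

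In canonical Wnt signalling, a ligand bound to Frizzled and LRP receptors stops the destruction complex, of which APC is a part, from degrading beta-catenin. Beta-catenin then binds TCF and LEF factors at target genes and recruits coactivators such as CBP. In hair follicles the pathway starts placodes, drives growth of the hair matrix and maintains the inductive state of the dermal papilla. Many of its targets act back on it: NKD1 and NKD2 bind Dishevelled and dampen the signal, APCDD1 is a membrane inhibitor of Wnt receptors that is mutated in a human hereditary hair loss, and SP5 and SP8 are zinc finger factors that act with or against TCF and LEF at target genes. Others link it to further pathways. EDAR is the ectodysplasin receptor, TNFRSF19, also called TROY, is a TNF receptor family member, BAMBI is a decoy receptor for BMP and TGF-beta signals, MYC drives growth, and CD44 is the hyaluronan receptor.

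The TCF and LEF core was looked for in the promoter windows to show where the targets could be addressed directly. RefSeq windows of GRCm38.p6, from 250 bases before to 50 bases after a transcript start, were at hand for Nkd1, Nkd2, Sp5, Sp8, Tnfrsf19, Edar and Cd44. The letters CTTTGAA and CTTTGAT were searched on both strands, and a window that held either once was counted. Of all 32851 windows 8.65% held a match, and of all 27025 genes with a window 9.88% had a match in any window. No window of Nkd1, Nkd2 or Cd44 held a match. Sp5, Edar, 1 of 3 windows of Sp8 and 1 of 2 windows of Tnfrsf19 held one. Each match stands below in capitals with 11 bases on each side, on the strand of the gene, and where the core reads on the opposite strand the capitals are its reverse complement.
Sp5, chr2:70474808-70474836, plus strand: ggcaaggccccCTTTGATcaggaaaatcc
Sp8, chr12:118847171-118847199, plus strand: ctccgcggcacTTCAAAGccggagaggga
Tnfrsf19, chr14:61038172-61038200, minus strand: ctgaatgggggATCAAAGtgacaaactag
Edar, chr10:58675912-58675940, minus strand: ggcccaacttgCTTTGATagaagcaagac
Relative to the transcript start, the match of Sp5 begins at -104, that of Sp8 at -51, that of Tnfrsf19 at -202 and that of Edar at -233. A match is a string of letters, and distant enhancers are not in these windows.

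None of the 8 measured genes was called higher or lower with E7386. Over all genes, 191 were called higher (0.753% of 25353) and 93 lower (0.367%), together 284 or 1.12%, with limma and a Benjamini-Hochberg adjusted p under 0.05. Of the 8 follicle Wnt targets 0 were called in either direction by limma, 0 had an unadjusted p under 0.05, against 15.2% of all genes, and 0 had groups of arrays that did not overlap, against 10.5% (4.81% higher and 5.69% lower). The same shares of all genes stand beside the counts of the lists below. Changes are given as E7386 minus vehicle on the log2 scale. Each level is the log2 of an array's processed signal minus the log2 of its 75th percentile, so that 0 is the 75th percentile of the array and levels of different genes are not compared. The median change of the 8 genes was -0.030, with 3 changes above 0 and 5 below it, against a median of 0.0088 over all genes. Over the 24 alternatives 3 to 5 changes lay below 0 and the median ran from -0.11 to 0.13, so neither has a settled direction. Without E7386 array 2 the median was 0.058, without E7386 array 3 it was 0.055, and without vehicle array 1 it was 0.077. The median size of their changes was 0.24, against 0.13 over all genes, and the median spread within groups was 0.21, against 0.18. The count of 284 called genes over the whole series is itself sensitive to single arrays. It was 125, 88 and 100 without E7386 replicates 2, 3 and 4, and 139, 107, 121 and 157 without vehicle replicates 1, 2, 3 and 4. Scaling by array medians turned the split of calls to 135 higher and 123 lower, and the follicle Wnt targets had 0 calls in each of these fits.

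**Figure D1:**
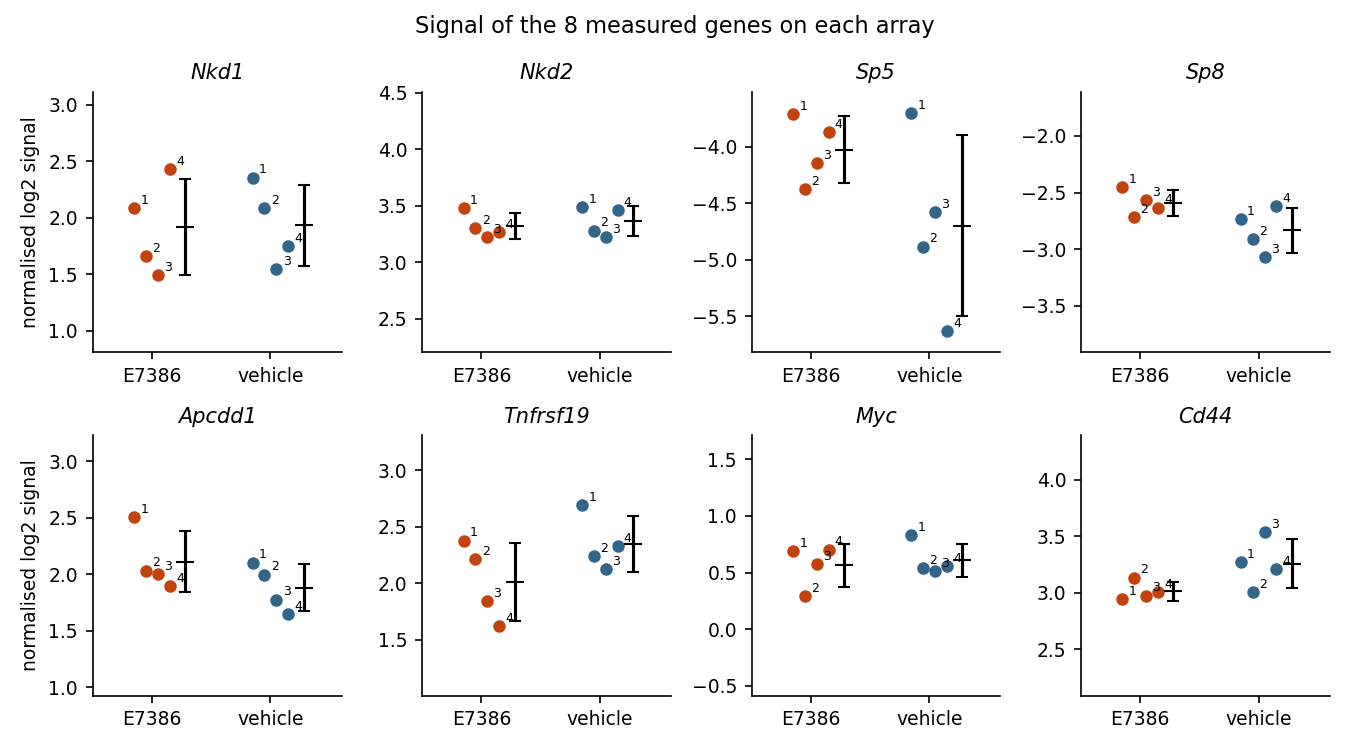
Normalised log2 signal of the 8 measured genes, 1 panel per gene, with each array as a point numbered by its replicate and the mean ± SD of each group (n = 4) beside the points. Each y axis spans the same log2 range; the points of E7386 and vehicle arrays overlap in every panel, and Sp5 has the widest vehicle group, with points between -5.63 and -3.70.

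Both Naked cuticle genes, feedback inhibitors that act on Dishevelled, had changes close to 0. Nkd1 read 2.08, 1.66, 1.49 and 2.43 on E7386 arrays 1 to 4, against 2.35, 2.08, 1.55 and 1.75 on vehicle arrays 1 to 4. Either group held a high pair and a low pair, and the highest and the lowest array were both of the E7386 group. The mean was 1.92 ± 0.42 with E7386 and 1.93 ± 0.36 with vehicle (SD, n = 4 each), a change of -0.018 with a 95% interval of -0.58 to 0.55 (limma, adjusted p = 0.987). In folds this interval runs from 0.667 to 1.46, so the data bound the change of Nkd1 only loosely.

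Nkd2 was the most evenly measured of the 8 genes. It read 3.48, 3.30, 3.22 and 3.27 on the E7386 arrays, against 3.49, 3.28, 3.22 and 3.46 on the vehicle arrays. The ranges were almost the same. The change was -0.045 (95% interval -0.26 to 0.17, limma adjusted p = 0.877), and its fold of 0.969 has an interval of 0.833 to 1.13. Only 27.9% of all genes had a smaller spread within groups, against 84.0% with a smaller spread than Nkd1. Of the Dishevelled proteins and other partners of NKD, 0 of 6 measured genes were called by limma and 0 had an unadjusted p under 0.05. Dvl1 stood at 0.028, a direction that turned to -0.049 with array medians (limma adjusted p = 0.935 and 0.841).

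The zinc finger factors Sp5 and Sp8, which act at the same target genes as TCF and LEF, had the largest positive changes of the 8 genes together with Apcdd1, none past the test. Sp5 read -3.71, -4.38, -4.15 and -3.87 on the E7386 arrays, against -3.70, -4.88, -4.58 and -5.63 on the vehicle arrays. Vehicle array 1 was the highest of all 8, while the other three vehicle arrays lay below every E7386 array. The mean was -4.03 ± 0.30 with E7386 and -4.70 ± 0.80 with vehicle (SD, n = 4 each), and the change of 0.67 has an interval of -0.18 to 1.53 (limma, adjusted p = 0.439; exact two-sided permutation p = 0.171). As a fold it is 1.59 with an interval of 0.881 to 2.88, the widest of the 8.

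Sp5 was also read near the limit of detection. Detection of its probe held on 4 of 4 E7386 arrays and on 3 of 4 vehicle arrays, vehicle array 4 being the exception. The faintest probes that counted as detected read -5.13 to -5.02 on E7386 arrays and -5.60 to -5.29 on vehicle arrays. Its change exceeded those of 96.3% of all genes in size, and its spread within groups exceeded those of 94.2%. The change was 1.00 without vehicle array 1 and 0.36 without vehicle array 4 (limma adjusted p = 0.194 and 0.595). Median signals were also corrected by normexp with an added offset of 50, which shrinks changes of dim probes by construction. The change of Sp5 was then 0.28 with the 75th percentile and 0.16 with quantile normalization (limma adjusted p = 0.254 and 0.540).

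Sp8 read -2.45, -2.72, -2.57 and -2.63 on the E7386 arrays, against -2.74, -2.91, -3.07 and -2.62 on the vehicle arrays. E7386 arrays 1 and 3 lay above all vehicle arrays, and vehicle array 4 lay among the E7386 values. The change was 0.24 (SE 0.11, 95% interval -0.020 to 0.50, limma adjusted p = 0.366; exact two-sided permutation p = 0.0857). Of the other SP factors, 6 of 7 were measured, 0 were called by limma and 1 had an unadjusted p under 0.05. That gene, Sp7, named after its values were seen, was detected on 2 of 4 E7386 and 4 of 4 vehicle arrays and so passed the filter through the vehicle group. A further probe of Sp8 was detected on 0 of the 8 arrays, while the probe used was detected on all 8.

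APCDD1 acts at the cell surface, where it binds Wnt ligands and LRP receptors. Apcdd1 read 2.51, 2.03, 2.01 and 1.90 on the E7386 arrays, against 2.10, 2.00, 1.78 and 1.65 on the vehicle arrays. The groups overlapped through vehicle arrays 1 and 2, and 1 E7386 array lay above them all. The mean was 2.11 ± 0.27 with E7386 and 1.88 ± 0.21 with vehicle (SD, n = 4 each), and the change of 0.23 has an interval of -0.13 to 0.59 (limma, adjusted p = 0.542). Without E7386 array 1 it was 0.098 (limma adjusted p = 0.765). Of the Wnt receptor genes listed with it, 7 were measured, 0 were called by limma and 2 had an unadjusted p under 0.05, with a median change of -0.079. These 2, named after their values were seen, went opposite ways. Fzd1 stood at 0.21 and Fzd2 at -0.48 (limma adjusted p = 0.325 and 0.173). The groups of Fzd2 did not overlap, and 5.69% of all genes were lower in this way.

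**Figure D2:**
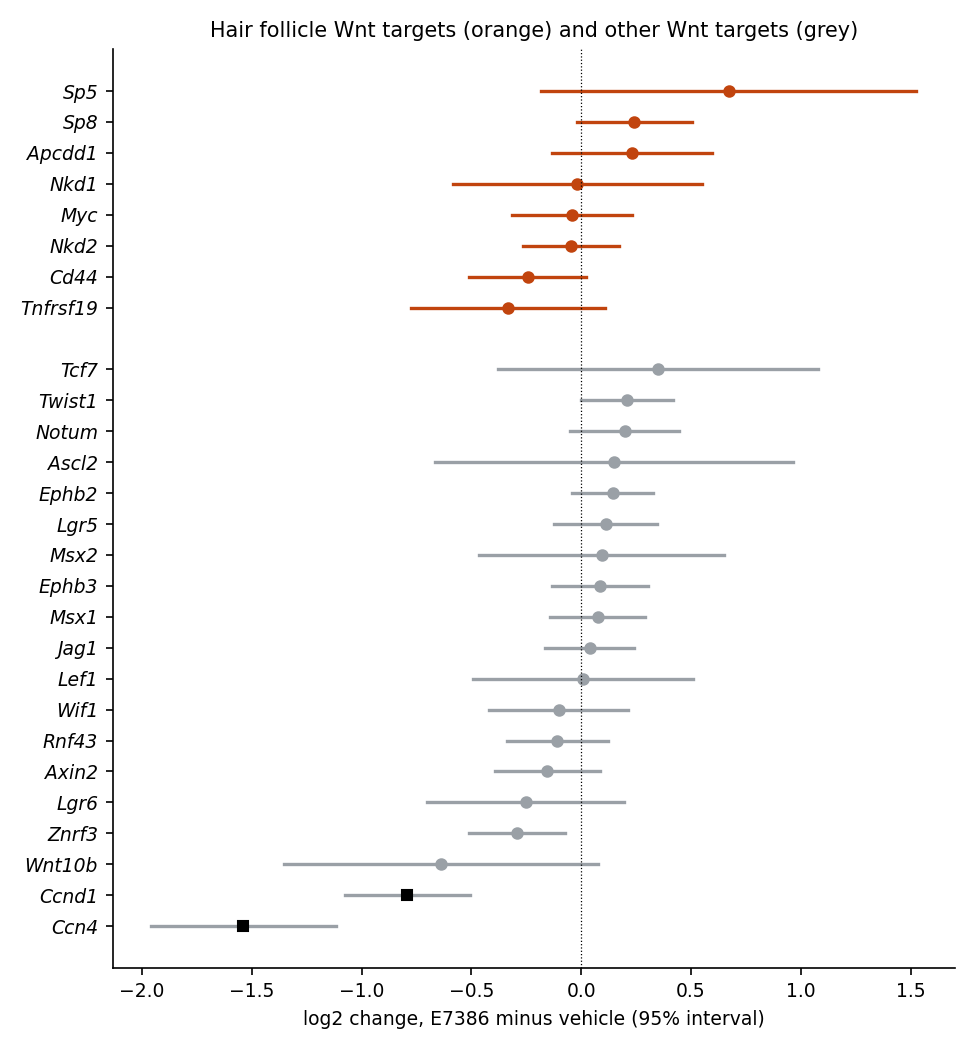
Log2 change (E7386 minus vehicle, x axis) with its 95% interval for the 8 follicle Wnt targets in orange and 19 other Wnt targets in grey, where black squares mark genes called by limma. Each orange interval spans 0, whereas the intervals of Ccnd1 at -0.79, Ccn4 at -1.54 and Znrf3 at -0.29, which was not called, lie left of it.

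Tnfrsf19, whose product belongs to the TNF receptor family and is known from hair follicle epithelium, had the largest negative change of the 8 genes. It read 2.38, 2.22, 1.84 and 1.62 on the E7386 arrays, against 2.70, 2.24, 2.13 and 2.33 on the vehicle arrays. E7386 arrays 3 and 4 lay below all vehicle arrays, and E7386 arrays 1 and 2 lay among them. The mean was 2.02 ± 0.35 with E7386 and 2.35 ± 0.25 with vehicle (SD, n = 4 each), and the change of -0.33 has an interval of -0.77 to 0.11 (limma, adjusted p = 0.459; exact two-sided permutation p = 0.229). Leaving out 1 array gave -0.45 to -0.20, the smallest in size without E7386 array 4, and without vehicle array 1 it was -0.22. The other probe of the gene read -2.53 to -2.33 on the E7386 arrays and -2.37 to -1.97 on the vehicle arrays. It gave -0.26 (limma over all 34112 detected probes, adjusted p = 0.347).

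Edar could not be compared. No array read its probe well above background, with values of -7.22, -5.88, -6.62 and -7.23 on the E7386 arrays and -6.91, -6.31, -7.72 and -7.35 on the vehicle arrays, all below the faintest detected probe of the same array. No fold is therefore given. The ligand gene Eda and the adaptor gene Edaradd were measured on all 8 arrays. Their changes were -0.037 (95% interval -0.28 to 0.21) and -0.18 (-0.49 to 0.13), with limma adjusted p = 0.913 and 0.574. Edaradd had a change of 0.12 on its dimmer probe, so its direction depends on the probe.

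Of the 11 genes listed around EDAR and TROY, 10 were measured, 0 were called by limma and the median change was -0.074. An unadjusted p under 0.05 was seen for 2, against 15.2% of all genes. Ngfr, the p75 neurotrophin receptor and, like TROY, a TNF receptor family member, was chosen for mention after its values were seen. It read 1.00, 0.38, 0.23 and 0.020 on the E7386 arrays, against 1.33, 1.34, 1.55 and 1.48 on the vehicle arrays. The groups did not overlap, and 5.69% of all genes were lower in this way. The change was -1.01 (SE 0.20), and it missed the threshold in limma (adjusted p = 0.0593). Without E7386 array 1 it passed (-1.21, adjusted p = 0.00798), and it passed in 7 of 24 alternatives in all.

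Bambi, the decoy receptor, was likewise dark on every array. It read -7.27, -7.21, -7.27 and -7.28 on the E7386 arrays, against -6.99, -7.46, -7.80 and -7.47 on the vehicle arrays, and no fold is given. The BMP pathway around it was well measured. Of 17 genes 0 were called by limma, 1 had an unadjusted p under 0.05 and the median change was -0.00012. Bmp4, a ligand made in the dermal papilla and matrix, stood at 0.25 (SE 0.11, limma adjusted p = 0.319). Id1 and Id3, direct targets of BMP signalling, stood at 0.033 (95% interval -0.23 to 0.30) and -0.028 (-0.24 to 0.19), with limma adjusted p = 0.933 and 0.929. The sign of Id1 turned to -0.044 with array medians.

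Myc, which drives growth and division, read 0.69, 0.29, 0.58 and 0.70 on the E7386 arrays, against 0.83, 0.54, 0.51 and 0.56 on the vehicle arrays. E7386 array 2 was the lowest and vehicle array 1 the highest, and the rest lay between them. The mean was 0.57 ± 0.19 with E7386 and 0.61 ± 0.15 with vehicle (SD, n = 4 each), a change of -0.042 with an interval of -0.31 to 0.23 (limma, adjusted p = 0.915). The fold of 0.972 has an interval of 0.804 to 1.17. Of its network of partners and antagonists, 8 of 10 genes were measured and 0 were called by limma. An unadjusted p under 0.05 was seen for 1, Mnt, against 15.2% of all genes. Mnt, named after its values were seen, stood at 0.22 (limma adjusted p = 0.199). Its groups did not overlap, against 4.81% of all genes that were higher in this way. Max, the obligate partner, stood at 0.086 and Mxd1, an antagonist, at 0.21 (limma adjusted p = 0.650 and 0.590).

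Genes that MYC is known to induce serve ribosome assembly, polyamine synthesis and growth. Of 18 measured, 17 had lower means with E7386 and 1 a higher mean, against 52.0% of all genes with a change above 0. The mean signal of the 18 genes was 3.10 to 3.48 on E7386 arrays and 3.25 to 3.71 on vehicle arrays, so the groups overlapped. These genes were read on the same arrays and can vary together, so the count of 17 does not stand for 17 independent results. Their median change was -0.23, against 0.0088 over all genes, 0 were called by limma, and 5 had an unadjusted p under 0.05, all of them lower. Nolc1, which takes part in ribosome assembly and was chosen for mention after its values were seen, was the 1 target whose groups did not overlap (5.69% of all genes were lower in this way). It read 2.49, 2.39, 2.17 and 2.35 on the E7386 arrays and 2.97, 2.61, 2.58 and 2.56 on the vehicle arrays (change -0.33, limma adjusted p = 0.235). Odc1, which makes polyamines, stood at -0.25 and Ncl, the nucleolar protein nucleolin, at -0.14 (limma adjusted p = 0.600 and 0.625). The exception above 0, named after its values were seen, was Cad at 0.25. Over the 24 alternatives 16 or 17 of the 18 stayed below 0 and the list median ran from -0.30 to -0.16, while 0 members were called in any of them.

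**Figure D3:**
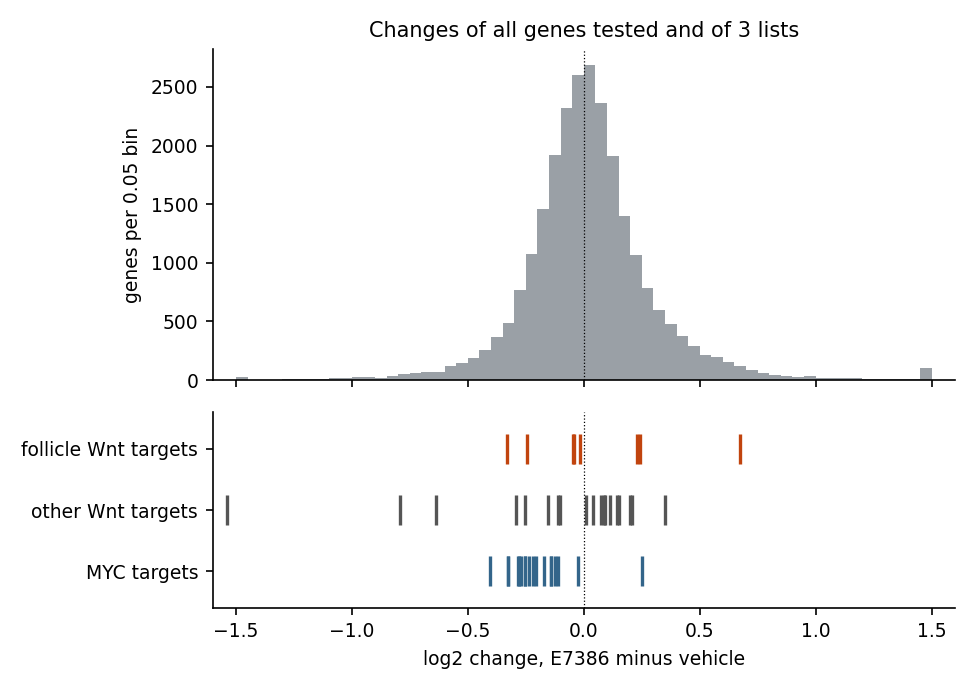
The upper panel counts all 25353 genes by log2 change (E7386 minus vehicle) in bins of 0.05, with values past 1.5 in either direction gathered in the end bins. The lower panel marks each gene of 3 lists as a line: the 8 follicle Wnt targets lie on both sides of 0, and 17 of 18 MYC targets lie left of it.

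Cd44 encodes the main receptor for hyaluronan and has many splice forms. Its brightest probe read 2.94, 3.13, 2.98 and 3.00 on the E7386 arrays, against 3.28, 3.01, 3.54 and 3.21 on the vehicle arrays. E7386 arrays 1, 3 and 4 lay below all vehicle arrays, and E7386 array 2 lay among them. The mean was 3.01 ± 0.083 with E7386 and 3.26 ± 0.22 with vehicle (SD, n = 4 each). The change of -0.24 has an interval of -0.51 to 0.023 (limma, adjusted p = 0.373; exact two-sided permutation p = 0.0571, where 0.0286 is the smallest that 4 against 4 can give). Without vehicle array 3 the change was -0.15, and without vehicle array 2 it was -0.33. The other 3 probes of the gene gave -0.15, -0.12 and -0.012 in the fit over all detected probes, so all 4 lay below 0 and 1 of them close to it.

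Of the genes listed with CD44, 12 of 14 were measured and 0 were called by limma. An unadjusted p under 0.05 was seen for 2, against 15.2% of all genes, and they went opposite ways. Has2 was lower with E7386, and Spp1, named after its values were seen, was higher (0.44, limma adjusted p = 0.275). Has2, a hyaluronan synthase, stood at -0.40 (SE 0.15, limma adjusted p = 0.280) and read -1.10, -1.46, -1.74 and -1.64 on the E7386 arrays against -1.09, -1.12, -0.85 and -1.30 on the vehicle arrays. Has1 stood at 0.22 with a wide interval of -0.75 to 1.19, and Has3 did not pass the detection filter.

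The probes of 1 gene agreed in sign for Nkd1, Nkd2, Tnfrsf19 and Cd44, which have more than 1 detected probe. Of the 14 detected probes of the follicle Wnt targets, 0 had groups that did not overlap. The sizes differed most for Nkd1. Its dimmer probe read -1.86, -3.41, -3.74 and -3.11 on the E7386 arrays and -2.77, -2.90, -0.94 and -2.80 on the vehicle arrays, where vehicle array 3 stood far above the others. Its change was -0.68 with an interval of -1.92 to 0.57. The dimmer probe of Nkd2 gave -0.17 (-0.57 to 0.23).

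**Figure D4:**
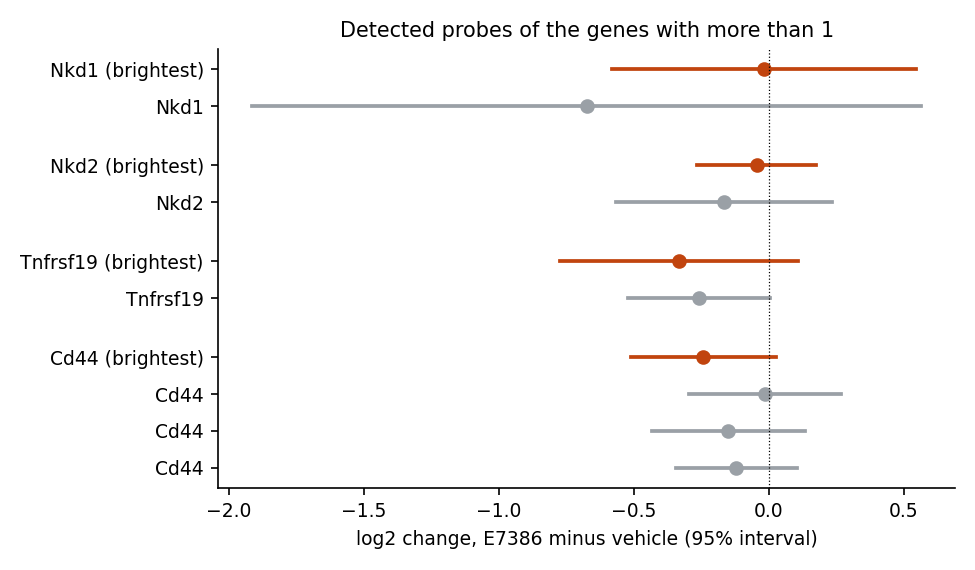
Log2 change (E7386 minus vehicle, x axis) with its 95% interval for each of the 10 detected probes of the 4 genes with more than 1, the brightest probe of a gene in orange and its other probes in grey. All intervals span 0, and the interval of the dimmer Nkd1 probe is the widest.

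Among other Wnt targets on the same arrays, some were called. Of 22 listed, 19 were measured. By limma 0 were called higher and 2 lower, against 0.753% and 0.367% of all genes. Of the 19 changes 11 lay above 0 and 8 below it, with a median of 0.039. Ccn4, a matricellular protein first described as Wnt induced, read -0.69, -0.81, -1.40 and -1.40 on the E7386 arrays against 0.52, 0.36, 0.62 and 0.36 on the vehicle arrays (change -1.54, limma adjusted p = 0.00993). Ccnd1, which encodes cyclin D1, read 3.21, 3.11, 2.74 and 2.84 on the E7386 arrays against 3.91, 3.82, 3.70 and 3.62 on the vehicle arrays (change -0.79, limma adjusted p = 0.0294). The call of Ccn4 held whichever array was left out, and that of Ccnd1 held in 1 of the 8 such fits, without E7386 array 1, with adjusted p from 0.0541 to 0.0991 in the others. Axin2, the feedback scaffold most often used as a readout, stood at -0.15 (95% interval -0.39 to 0.085) on its brighter probe and at 0.20 on the other. Lef1 stood at 0.0076 (-0.49 to 0.51, and at -0.069 with array medians) and Lgr5 at 0.11 (-0.12 to 0.34), with limma adjusted p = 0.532, 0.994 and 0.659 for Axin2, Lef1 and Lgr5. Znrf3, a ubiquitin ligase that removes Wnt receptors, was named after its values were seen. It stood at -0.29 (95% interval -0.51 to -0.074) and missed the threshold (limma adjusted p = 0.205). The choice of all these lists was made with earlier results of these data known.

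Cell type markers were read beside the targets, since follicles were taken as whole tissue and fewer cells of a type cannot be told apart from less RNA per cell. The detection filter passed all 6 hair matrix and cortex markers with a probe and all 7 inner root sheath markers. It also passed all 6 markers of the basal and outer root sheath and all 10 of skeletal muscle. Passing it therefore does not tell follicle from other tissue. The mean signal of the hair matrix markers was 6.32 to 6.94 on E7386 arrays and 5.64 to 6.86 on vehicle arrays, and that of 10 skeletal muscle markers was 1.57 to 4.43 on E7386 arrays and 1.31 to 4.34 on vehicle arrays. The groups overlapped in both. The mean of 8 dermal papilla markers was -1.69 to -1.22 on E7386 arrays and -1.20 to -1.10 on vehicle arrays, but 1 of them, Corin, was detected on 1 of 4 E7386 and 4 of 4 vehicle arrays and so passed the filter through the vehicle group. Over the 7 markers detected in both groups, a mean added after seeing the data, the ranges overlapped, at -1.06 to -0.84 on E7386 arrays and -0.87 to -0.62 on vehicle arrays. Of the 8 markers 0 were called by limma. An unadjusted p under 0.05 was seen for 3, of which Rspo3 (-1.20) and Tbx18 (-0.44) had lower means with E7386 and Fgf10 (0.55) a higher one, and these were named after their values were seen. Of 6 sebaceous gland markers 1, the acyltransferase gene Dgat2l6, named after its values were seen, was called higher (0.77, limma adjusted p = 0.034), and their mean was 0.87 to 1.30 on E7386 arrays and 0.58 to 0.90 on vehicle arrays. The share of transcript spots well above background did not overlap between groups, at 61.5% to 61.9% on E7386 arrays and 62.2% to 64.7% on vehicle arrays. The part of the papilla and sebaceous markers and of the spot share in the values above was not tested.

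The spread of some targets within a group went with these markers. The 4 arrays with the highest hair matrix mean, E7386 arrays 1 and 4 and vehicle arrays 1 and 2, were also the 4 with the highest Nkd1 on its brighter probe. The same 4 arrays had the highest inner root sheath means, at 7.32 to 7.53 against 7.05 to 7.17 on the others. They also had the highest melanocyte means, at 2.52 to 3.06 against 2.07 to 2.40, so the pattern is not particular to matrix markers. E7386 arrays 1 and 2 and vehicle array 1 had the lowest muscle means, at 1.57, 2.34 and 1.31. They were the highest arrays of their groups for Tnfrsf19, Apcdd1 and Nkd2, and also for Npm1 and Fbl. Npm1 and Fbl are MYC targets named after their values were seen, so this order is not particular to the follicle Wnt targets. With the muscle mean as a covariate the change of Tnfrsf19 was -0.37 (limma, adjusted p = 0.0873), the smallest adjusted p that any of the 8 genes reached in the 24 alternatives. These patterns were seen in the data and not tested.

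**Figure D5:**
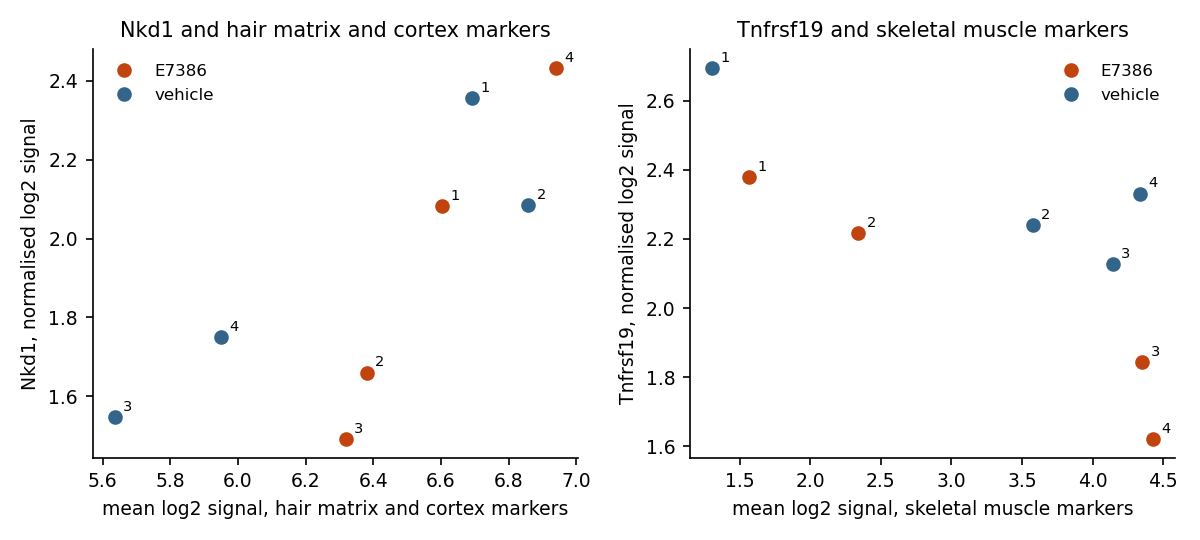
Left, Nkd1 against the mean of 6 hair matrix and cortex markers; right, Tnfrsf19 against the mean of 10 skeletal muscle markers; all axes are normalised log2 signal and each point is an array numbered by its replicate. Nkd1 is higher on the 4 arrays with more matrix signal, and Tnfrsf19 is highest on vehicle array 1 and E7386 array 1, which have the least muscle signal. The same 4 arrays also have the highest inner root sheath and melanocyte means, which are not shown.

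The gene whose pattern over the 8 arrays was most like each target was looked up among 15239 named genes detected on all arrays (15240 for Sp5). The best matches were Ctif for Nkd1 (Pearson r = 0.972), Snhg15 for Nkd2 (0.974), Tbp for Sp5 (0.968), Ewsr1 for Sp8 (0.970), Xrn2 for Apcdd1 (0.981), Fbxl19 for Tnfrsf19 (0.996), Eif3g for Myc (0.966) and Zbtb3 for Cd44 (0.966). They are a description of 8 arrays that share scaling and slide. Each is the highest of all values searched, and these matches do not show whether Wnt targets vary together.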

How the data were processed

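RNA of 8 whisker follicle samples was hybridised to 1-colour Agilent arrays, 1 per sample. The scanner files hold intensities that the authors made with Feature Extraction 11.5.1.1, per the file headers (version 11, per the submitters' processing notes). A deposited value table is in log2, and its columns are identical once sorted and keep the rank order of the processed signal, as quantile normalisation gives; it served as an alternative. Their array design is on mm9, so no coordinates of probes are given.

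Computed here: spots marked as non-uniform (2 to 14 per array) were left out, and log2 processed signals of 1 probe were averaged and centred on the 75th percentile over the 55681 probes (397.3 to 569.1 in intensity). Accessions of 27509 of 29150 RefSeq probes gave symbols through the RefSeq table of GRCm38.p6. The probe with the highest mean over 8 arrays stood for a gene, kept if detected (well above background) on 3 or more of the 4 arrays of a group. limma 3.58.1 (lmFit, eBayes, R 4.3.3) tested all 25353 genes, with Benjamini-Hochberg adjustment. The fit was tested on simulated data. Single genes also had an exact permutation test, and no p was adjusted over the targets alone. The genes to name were all 10 targets, 17 fixed pathway genes, every listed gene past the threshold and the gene most like each target; exceptions are marked in the text. The targets, lists and tests were chosen with earlier results of these data known. Planned normexp runs used median in place of mean signals.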

Additional observations from a re-analysis of the deposited data

Results flagged for a closer look

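Among the 14 detected probes of the follicle Wnt targets, 2 groups of 4 arrays held an array that stood apart from the other three by Dixon's criterion, which flags about 1 in 20 groups by chance. Myc on vehicle array 1 read 0.83, against 0.51 to 0.56 on the other vehicle arrays. The dimmer probe of Nkd1 on vehicle array 3 read -0.94, against -2.90 to -2.77 on the other vehicle arrays, while the brighter probe read 1.55 there, the lowest of the vehicle group. No cause of either was tested.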

How the results depend on the processing

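The follicle Wnt targets had 0 calls under each of 24 alternatives, 3 of them chosen in this form after seeing the data. These were normexp on median signals with either normalization, and leaving out the 3 arrays of low muscle signal. The normexp runs had been planned on mean signals, which the scanner files do not hold. Changes of Apcdd1, Cd44, Nkd2, Sp5, Sp8 and Tnfrsf19 kept their sign throughout, and Sp5 had no value where detection on all arrays was required. Some uncalled values changed sign, and not only those near 0. Nkd1 was at 0.016 with normexp and quantile normalization and ran from -0.19 to 0.12 when 1 array was left out. Myc ran from -0.087 to 0.049 in those fits, Lef1 from -0.12 to 0.16, Eda from -0.10 to 0.016, Has1 from -0.22 to 0.43, Id1 from -0.048 to 0.10, Id3 from -0.11 to 0.0040 and Dvl1 from -0.037 to 0.080. Without the 3 arrays of low muscle signal Myc was at 0.11, Nkd1 at 0.17, Has1 at -0.18, Id1 at -0.0013 and Lef1 at -0.015. Array medians gave -0.049 for Dvl1, -0.044 for Id1 and -0.069 for Lef1, normexp with the 75th percentile gave -0.0019 for Id1 and -0.015 for Lef1, and Lef1 was at -0.057 with array weights and -0.027 with muscle as a covariate. The dimmer probe gave 0.20 for Axin2 and 0.12 for Edaradd, and the mean of probes 0.024 for Axin2. The cause was not tested.

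Over all genes, 479 were called with normexp and quantile normalization, 153 with no detection filter (more genes tested), 610 with muscle as a covariate, 48 without the 3 arrays of low muscle signal (fewer samples) and 88 to 240 when 1 array was left out. The replicate number as a block gave 59. Why these counts differ was not tested. Deviations of same-numbered arrays correlated at 0.49, -0.17, 0.29 and 0.18 for numbers 1 to 4, so the numbers were not taken as pairs. With the block Apcdd1 and Tnfrsf19 had adjusted p = 0.285 and 0.292 in limma, and Ccn4 and Ccnd1 lost their calls (0.0723 and 0.0593). Signal over background limits Sp5, Edar and Bambi.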
